A study of Mus musculus with 16 samples.

Results

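Genes of mitosis are described here: 46 genes that encode the machinery by which a cell enters, runs and leaves division, among 54347 genes in the deposited count table. They were taken by symbol from a list of mitosis genes, with no cut on a measured value, and every listed symbol was found. RNA was sequenced from 16 bone marrow samples in 4 groups of 4 mice, wildtype (WT) and UREd/d mice (URE) by 2 sorted populations. LSKs (lineage-negative, Sca-1+, c-Kit+) are the stem cell-enriched fraction, and GMPs (lineage-negative, Sca-1-, c-Kit+, Cd16/32+) are granulocyte-monocyte progenitors. All mice were on the C57BL/6 background, were littermates aged 8 to 12 weeks and received no treatment. URE mice lack the upstream regulatory element, an enhancer of the PU.1 gene (Spi1), in all cells of the body, and not only in the cells sorted here.

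Entry into mitosis is driven by the kinase Cdk1 bound to cyclin A or cyclin B, while Aurora and Polo-like kinases build the spindle and the spindle checkpoint delays chromosome separation until every kinetochore is attached. Most of these genes are transcribed late in the cell cycle, after DNA replication, so their RNA is abundant only in cells that divide. Long-term stem cells are mostly quiescent, whereas myeloid progenitors divide often. In bulk RNA from sorted cells, fewer dividing cells and less of each RNA per dividing cell cannot be told apart.

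A promoter window, from 250 bases before to 50 bases after the start site, was matched by symbol for 38 of the 46 genes in RefSeq (GRCm38.p6). Many promoters of late cell cycle genes carry a CCAAT box, the site of NF-Y, and a CHR element (TTTGAA or TTTAAA), which is bound by the MuvB complexes that switch these genes between quiescence and division. Searched on both strands in 1 window per gene, CCAAT was present in 29 of the 38 windows (76.3%), against 38% of 27026 promoter windows. TTTGAA or TTTAAA was present in 31 windows (81.6%), against 27.9% of all windows. Both kinds of letters stood together in 26 windows (68.4%), against 11% of all. The E2F site letters TTTGGCGC or TTTCCCGC were found in 2.63% of the mitosis windows and 1.63% of all windows. The letters GAGGAA, the core bound by PU.1 and other ETS factors, were found in 39.5% and 28.3%, and the longer GAGGAAGT in 5.26% and 3.25%. These matches describe letters in a window and were not tested against binding. The 150 bases before the RefSeq start are given for 4 genes that hold both kinds of letters and rose from LSK to GMP in WT, for Tacc3, which holds none of them and also rose, and for Kif23, the gene that moved apart from the rest. Capitals mark the CCAAT and CHR letters on either strand, so that ATTGG is a CCAAT box and TTCAAA a CHR element read on the other strand.
Cdk1 (chr10:69352913-69353062, minus strand): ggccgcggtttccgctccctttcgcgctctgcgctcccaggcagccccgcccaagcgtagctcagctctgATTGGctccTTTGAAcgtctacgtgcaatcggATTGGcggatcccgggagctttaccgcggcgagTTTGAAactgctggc
Top2a (chr11:99024190-99024339, minus strand): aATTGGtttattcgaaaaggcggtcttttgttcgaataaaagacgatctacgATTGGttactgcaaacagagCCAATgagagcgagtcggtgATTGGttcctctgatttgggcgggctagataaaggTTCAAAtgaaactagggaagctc
Cdc20 (chr4:118437344-118437493, minus strand): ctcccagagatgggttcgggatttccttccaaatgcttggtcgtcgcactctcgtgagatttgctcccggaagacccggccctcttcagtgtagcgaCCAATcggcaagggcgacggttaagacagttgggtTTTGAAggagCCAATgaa
Plk1 (chr7:122159285-122159434, plus strand): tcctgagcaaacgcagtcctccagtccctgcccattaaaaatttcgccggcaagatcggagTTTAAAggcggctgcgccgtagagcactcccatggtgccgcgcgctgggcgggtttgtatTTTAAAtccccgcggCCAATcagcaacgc
Tacc3 (chr5:33657978-33658127, plus strand): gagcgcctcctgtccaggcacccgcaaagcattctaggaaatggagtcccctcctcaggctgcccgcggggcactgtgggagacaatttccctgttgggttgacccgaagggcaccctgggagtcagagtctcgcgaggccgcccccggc
Kif23 (chr9:61946800-61946949, minus strand): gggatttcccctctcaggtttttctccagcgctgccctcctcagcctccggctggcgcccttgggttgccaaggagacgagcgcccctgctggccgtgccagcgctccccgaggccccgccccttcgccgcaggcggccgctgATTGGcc

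Cdk1 thus held 2 CCAAT boxes and 2 CHR elements in these bases, and Top2a held 4 CCAAT boxes ahead of 1 CHR element. In Cdc20 the CHR element lay between both CCAAT boxes. Kif23 held 1 CCAAT box in the stretch shown, and its TTTGAA began 2 bases past the first transcribed base, outside that stretch.

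The libraries held between 20028302 and 29128858 estimated counts, and each of the 46 genes had at least 225 counts in every library. Levels are given as CPM, which is the count relative to the library size after scaling with edgeR's TMM factors. Spi1 averaged 125 ± 40.0 CPM (SD, n = 4) in WT LSKs and 3.05 ± 1.41 CPM in URE LSKs, and 139 ± 38.1 CPM in WT GMPs and 20.8 ± 5.59 CPM in URE GMPs, so Spi1 was low in every library labelled URE. Ly6a (Sca-1) averaged 92.4 and 62.1 CPM in WT and URE LSKs against 2.25 and 1.32 CPM in the GMPs, and Fcgr3 (Cd16) averaged 10.9 and 14.9 CPM in the LSKs against 323 and 803 CPM in the GMPs. Fcgr2b (Cd32) averaged 13.6 and 0.501 CPM in WT and URE LSKs against 89.2 and 50.5 CPM in the GMPs. Between genotypes, Fcgr2b thus averaged lower in URE in both populations, where Fcgr3 averaged higher. URE LSK replicate 3 was the lowest library of its group for 42 of the 46 genes and had the highest mitochondrial share of the 16 libraries, 2.48% of counts, where the lowest share was 1.11%. URE GMP replicate 3 was the lowest of its group for 35 of the 46. URE LSK replicate 3 also stood apart in the summed level of megakaryocyte markers, at 387.5 CPM against 59.4 to 158.3 CPM in the other URE LSKs, and of mast cell and basophil markers, at 155.5 against 89.9 to 110.5 CPM. The part of these in its mitosis values was not tested. Some counts of calls, median fold changes and group means that use URE LSK replicate 3 are also given without it. All other values include that library unless stated.

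The summed level of the 46 genes was higher in GMPs than in LSKs, without overlap in WT and with overlapping libraries in URE. Their summed level in replicates 1 to 4 was 4791, 5019, 5130 and 5653 CPM in WT LSKs, and 8496, 9411, 8723 and 8389 CPM in WT GMPs. In URE LSKs it was 5405, 6803, 3542 and 6672 CPM, and in URE GMPs 8053, 8081, 6439 and 8784 CPM. WT LSKs and WT GMPs were separate, whereas URE GMP replicate 3 lay below URE LSK replicates 2 and 4. The group means were 5148 ± 365 CPM in WT LSKs, 5606 ± 1513 CPM in URE LSKs, 8755 ± 459 CPM in WT GMPs and 7839 ± 993 CPM in URE GMPs (SD, n = 4 each). Without replicate 3 the URE LSK mean was 6293 ± 772 CPM (n = 3). As a share of all counts, without the scaling of CPM, the 46 genes averaged 0.586% in WT LSKs and 0.792% in WT GMPs. In URE they averaged 0.607% in LSKs, or 0.670% without replicate 3, and 0.694% in GMPs. The 4 shares in URE LSKs, from 0.418% to 0.741%, overlapped those in URE GMPs, from 0.640% to 0.762%.

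**Figure D1:**
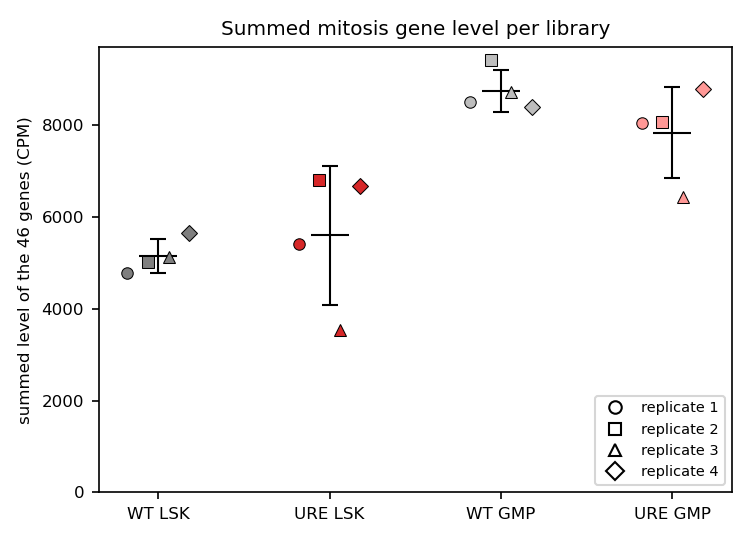
Summed level of the 46 mitosis genes (y axis, CPM) in each of the 16 libraries by group (x axis). Marker shape gives the replicate number, horizontal lines the group mean and bars ± 1 SD (n = 4). WT GMPs lie between 8389 and 9411 CPM, above all LSK libraries, and URE LSK replicate 3 is the lowest library at 3542 CPM.

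The genes spanned a wide range of levels. Per kilobase of exon, cyclin B2 (Ccnb2) was the highest in every group, with a mean of 101 CPM per kb in WT LSKs, 97.0 in URE LSKs, 161 in WT GMPs and 149.8 in URE GMPs. The phosphatase gene Cdc25c was the lowest in every group, at 3.37, 3.10, 5.87 and 5.15 CPM per kb in the same order. Kif23 held rank 33 of 46 in WT LSKs, rank 41 in URE LSKs, rank 43 in WT GMPs and rank 45 in URE GMPs.

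To ask how the mitosis genes change as normal LSKs give rise to GMPs, WT GMPs were compared with WT LSKs by edgeR's quasi-likelihood test. A gene was called at a Benjamini-Hochberg adjusted p under 0.05 over all genes tested and a fold change above 1.5. In WT, 33 of the 46 genes rose and 0 fell, where 11.5% of the 14767 genes tested rose and 15.8% fell. Their median log2 fold change was 0.78, against -0.09 over all genes tested. The groups did not overlap for 34 genes, all higher in GMPs, where 13.5% of all genes tested were separate and higher and 17.9% separate and lower, and 43 of the 46 were higher in the GMP than in the LSK library in 4 of 4 same-numbered pairs. With the replicate number as a block the count was 36 of 46, against 15.8% of all genes, with Ccna2, Racgap1 and Bub1b as the additional calls.

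Markers of other cells moved with this comparison too. The mast cell and basophil sum was 23.7 to 45.2 CPM in WT LSKs and 636 to 1276 CPM in WT GMPs, with 1 and 0 of 5 markers under 1 CPM. The monocyte and dendritic sum was 197.6 to 384.7 CPM in LSKs and 618.8 to 1008 CPM in GMPs, although Cd74 averaged 240.7 and 128.5 CPM. The T cell sum, mostly Lck, was 58.6 to 115.7 CPM in LSKs and 8.7 to 14.3 CPM in GMPs, with 4 of 6 markers under 1 CPM in both. The megakaryocyte sum was 63.8 to 85.4 CPM in LSKs and 96.6 to 224.8 CPM in GMPs, with 1 of 5 under 1 CPM in both. The erythroid sum was 1183 to 1792 CPM in LSKs and 426 to 1095 CPM in GMPs, with Car2 at a mean of 1391 and 390.8 CPM, while Klf1 averaged 5.42 and 54.15 CPM and Gata1 8.71 and 50.3 CPM. Their part in the mitosis values was not tested.

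Of the cyclins, Cdk1 and the CDC25 phosphatases that activate it, 4 of 6 rose. Cyclin B1 (Ccnb1, chr13:100778650-100786570 in GRCm38), the cyclin that brings Cdk1 to the onset of mitosis, measured 152, 154, 144 and 189 CPM in WT LSKs and 343, 360.3, 307 and 401 CPM in WT GMPs, with no overlap. Its log2 fold change was 1.15 ± 0.16 (SE; edgeR adjusted p = 0.000883). Cdk1 (chr10:69335146-69352938) measured 82.6, 83.2, 102 and 102 CPM in LSKs and 177, 205, 215 and 172 CPM in GMPs, a log2 fold change of 1.06 ± 0.15 (edgeR adjusted p = 0.00111). Ccnb2 rose by 0.67 ± 0.15 and Cdc25c by 0.81 ± 0.23 on the log2 scale. Cdc25b, a phosphatase that starts Cdk1 activation at the centrosome, had a log2 fold change of 0.00 ± 0.45, with libraries between 14.3 and 33.5 CPM in LSKs and between 10.9 and 38.7 CPM in GMPs.

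All 3 listed genes of the chromosomal passenger complex, which corrects faulty kinetochore attachments, rose. Its kinase Aurkb had the largest increase of the 46 genes, from 91.2, 80.9, 76.6 and 111 CPM in WT LSKs to 219.9, 239, 185 and 229.9 CPM in WT GMPs (log2 fold change 1.28 ± 0.17, edgeR adjusted p = 0.000732). Survivin (Birc5) rose by 1.19 ± 0.30 and the scaffold Incenp by 0.77 ± 0.25 on the log2 scale. Of the 3 other mitotic kinases, Aurora A (Aurka), which matures centrosomes, rose 1.99-fold (log2 SE 0.17) and Plk1 by 1.15 ± 0.29 on the log2 scale. Plk1 libraries overlapped, since WT GMP replicate 3 at 80.0 CPM lay below WT LSK replicate 4 at 89.1 CPM. The centrosome kinase Nek2 had a log2 fold change of 0.59 ± 0.27 and was not called (adjusted p = 0.139).

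Of 7 genes of the spindle checkpoint and its target, the anaphase-promoting complex, 6 rose. The checkpoint kinase Bub1 rose by 1.01 ± 0.19, the inhibitor Mad2l1 by 0.91 ± 0.17 and the checkpoint kinase Ttk by 0.78 ± 0.17 on the log2 scale. The activator Cdc20 rose by 0.78 ± 0.22 and Ube2c, the ubiquitin-conjugating enzyme of the complex, by 0.93 ± 0.20. Bub3, the checkpoint partner that brings Bub1 to kinetochores, rose by 0.65 ± 0.14. Bub1b was not called, with a log2 fold change of 0.70 ± 0.38 (edgeR adjusted p = 0.21). Its levels were 141, 80.5, 57.5 and 133 CPM in WT LSKs and 238, 144, 80.2 and 205 CPM in WT GMPs. Each GMP library was above the LSK library of the same number, and replicates 1 and 4 were above replicates 2 and 3 in both populations. The replicate block gave Bub1b an adjusted p of 0.000303.

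At the centromere and kinetochore, 3 of 5 genes rose. The motor Cenpe, which carries chromosomes to the spindle equator, rose by 1.02 ± 0.22, the microtubule-binding subunit Nuf2 by 0.93 ± 0.20 and the centromeric histone Cenpa by 0.85 ± 0.17 on the log2 scale. Ndc80, the partner of Nuf2, passed the adjusted p at 0.0292 but not the fold threshold, with a log2 fold change of 0.49 ± 0.14. Cenpf had a log2 fold change of 0.39 ± 0.17 and was not called.

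Of the 6 kinesins, 5 rose. The microtubule depolymerase Kif2c rose by 0.99 ± 0.19, the spindle midzone motor Kif20a by 0.91 ± 0.20, Kif20b by 0.90 ± 0.22, the spindle-pole separating motor Kif11 by 0.74 ± 0.21 and the chromokinesin Kif4 by 0.74 ± 0.22 on the log2 scale. Kif20a shares 1271 exonic bases with Cdc23 on the other strand and Kif4 shares 832 with Pdzd11, which unstranded libraries cannot separate. The same holds for Cdc25c, which shares 623 bases with Gm3550, and Ccna2, which shares 510 with Exosc9, and for shorter overlaps of 53 to 298 bases at Cdc20, Cdc25b, Plk1, Nusap1, Ckap2l, Tacc3 and Nek2. Kif23 was the 1 member of the 46 with a negative log2 fold change beyond its SE, at -0.44 ± 0.18 (edgeR adjusted p = 0.108).

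Of 8 spindle-associated genes, 5 rose. Tacc3, which crosslinks spindle microtubules, measured 111, 125, 143 and 134 CPM in WT LSKs and 255, 327, 317 and 262 CPM in WT GMPs. Its log2 fold change was 1.18 ± 0.15, with the lowest adjusted p of the 46 genes (0.000601, edgeR). Ckap2l rose by 0.93 ± 0.16, the spindle assembly factor Tpx2 by 0.86 ± 0.14, Hmmr by 0.79 ± 0.16 and Dlgap5 by 0.67 ± 0.16 on the log2 scale. Nusap1, at 0.50 ± 0.13, passed the adjusted p at 0.0188 but not the fold threshold. The microtubule polymerase Ckap5 (0.38 ± 0.23) and Ckap2 (0.42 ± 0.15) were not called.

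Of 5 genes of chromosome structure, 4 rose. Mki67, whose protein Ki-67 coats mitotic chromosomes and marks dividing cells, measured 123, 189, 181 and 163 CPM in WT LSKs and 281, 347, 364 and 250.1 CPM in WT GMPs, an increase of 0.92 ± 0.19 on the log2 scale (edgeR adjusted p = 0.00608). Topoisomerase Top2a rose by 0.69 ± 0.17, and the condensin subunits Smc4 and Smc2 by 0.73 ± 0.14 and 0.70 ± 0.15. The condensin subunit Ncapd2 had a log2 fold change of 0.35 ± 0.24 and was not called. Among 3 cytokinesis genes, Anln, which anchors the contractile ring, rose by 1.07 ± 0.18. Ect2, which activates RhoA at the cleavage site, and Racgap1 had log2 fold changes of 0.53 ± 0.15 and 0.58 ± 0.21 and were not called.

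**Figure D2:**
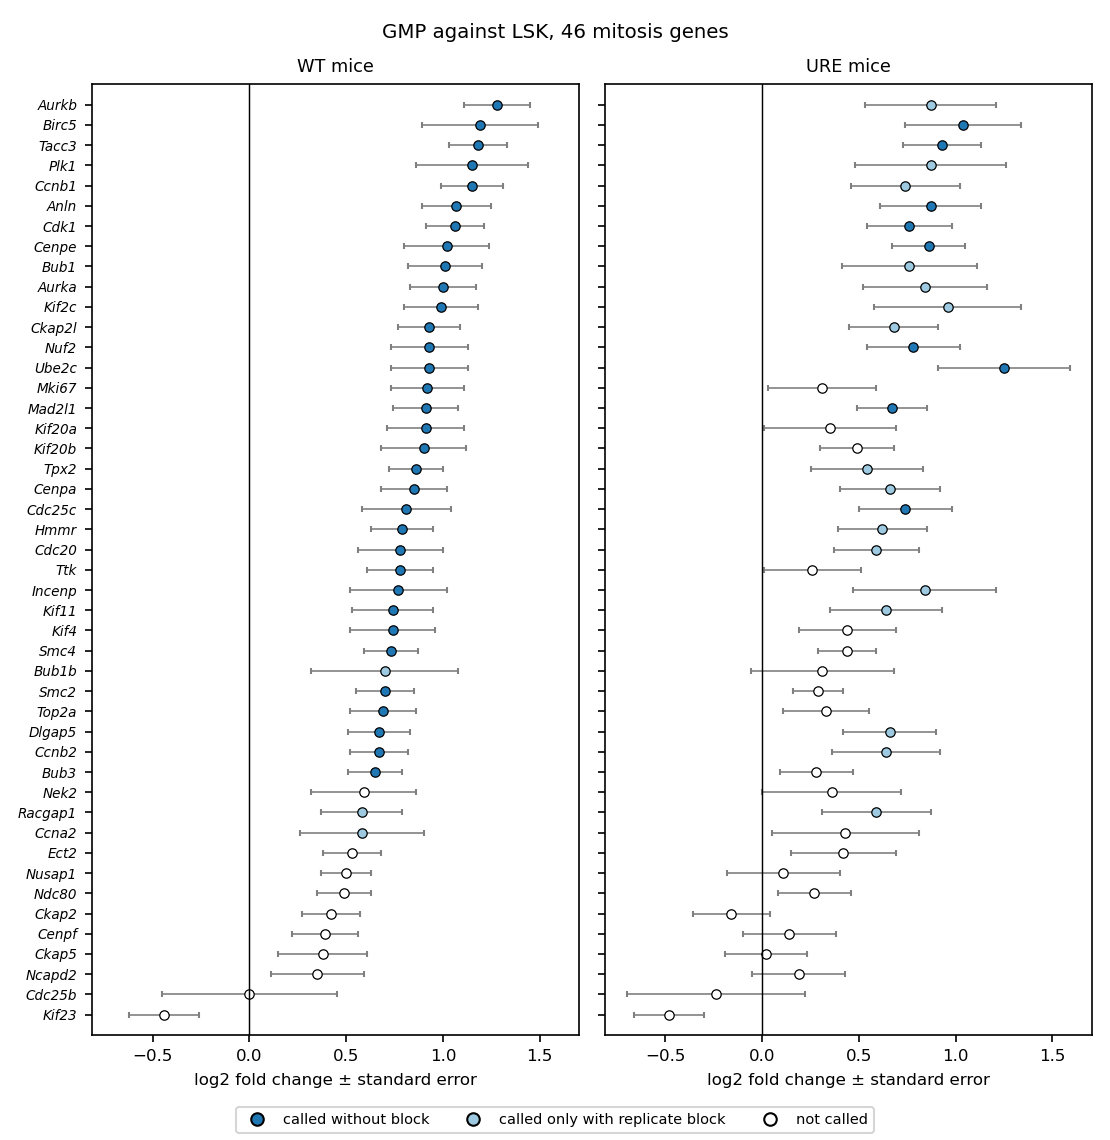
GMP against LSK for the 46 mitosis genes (y axis, ordered by the WT value) in WT (left) and URE (right): log2 fold change (x axis) with its standard error. Dark points were called without the replicate block, light points only with it and open points in neither; 33 genes in WT and 9 in URE are dark, and Kif23 is negative in both panels.

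The same comparison in URE mice asks whether this increase is kept where PU.1 is low. It uses other libraries than the WT comparison. In URE, 9 of the 46 genes rose and 0 fell, where 9.2% of the 14395 genes tested rose and 12.6% fell. The median log2 fold change was 0.59, against -0.09 over all genes tested, and 35 genes were higher in GMPs in 4 of 4 same-numbered pairs. The groups were separate for 14 genes, of which 13 were higher in GMPs and 1, Kif23, was lower, against 11.2% of all genes higher and 15.4% lower. With the replicate number as a block, 25 of the 46 rose, against 13.3% of all genes tested. In URE the mast cell and basophil sum was 89.9 to 155.5 CPM in LSKs and 816 to 2292 CPM in GMPs. The erythroid sum was 2245 to 2725 CPM in LSKs and 419.6 to 1613 CPM in GMPs, with Car2 at a mean of 2334 and 688.8 CPM. Klf1, in contrast, averaged 3.74 and 55.8 CPM and Gata1 6.80 and 53.4 CPM. The T cell sum, mostly Lck, was 39.4 to 52.9 CPM in LSKs and 8.43 to 28.9 CPM in GMPs. What these contribute to the mitosis values was not tested. Without URE LSK replicate 3 the counts were 5 without the block (8.71% of all genes) and 22 with it (15.5%). The median was 0.48 without it and without the block. Leaving out URE LSK replicate 2 gave 16, where 10.9% of all genes rose. Leaving out URE GMP replicate 2, URE GMP replicate 4 or URE LSK replicate 1 gave 2 each, where 6.28%, 6.22% and 7.09% of all genes rose, and the other libraries gave 5 or 6.

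The 9 genes called in URE GMPs without the block were Ube2c, Birc5, Tacc3, Anln, Cenpe, Nuf2, Cdk1, Cdc25c and Mad2l1. Without URE LSK replicate 3, Ube2c, Tacc3, Anln, Cenpe and Cdk1 kept their calls, whereas Birc5, Nuf2, Cdc25c and Mad2l1 had adjusted p between 0.0553 and 0.0946. Tacc3 and Cenpe kept the call in all 8 fits that left out 1 library, and Nuf2 and Cdc25c in 1 of 8 each. Ube2c had the largest increase, from 48.0, 87.2, 29 and 70.3 CPM in URE LSKs to 113, 139.8, 97.2 and 201 CPM in URE GMPs, with no overlap (log2 fold change 1.25 ± 0.34, edgeR adjusted p = 0.028). It shares 592 exonic bases with Tnnc2 on the other strand. Tacc3 measured 132, 180.3, 88.5 and 137 CPM in URE LSKs and 251, 290.2, 225 and 250.3 CPM in URE GMPs, an increase of 0.93 ± 0.20 (adjusted p = 0.0103), and Cdk1 rose by 0.76 ± 0.22 (adjusted p = 0.0357). For Cdk1 the single LSK library that lay lowest was replicate 3 at 63.0 CPM, beside 97.6, 123 and 134 CPM in the others.

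By class, the calls stand beside the 9.2% of all genes that rose without the block and the 13.3% with it. Without the block, 4973 of the 14395 genes tested had an unadjusted p under 0.05 by edgeR. Without URE LSK replicate 3 as well, 4850 of 14776 had. The chromosomal passenger complex was called for 1 of 3 genes, and for 3 of 3 with the block. Aurkb measured 117, 129, 40.7 and 137 CPM in URE LSKs and 194, 201, 138 and 234 CPM in URE GMPs (log2 fold change 0.87 ± 0.34, adjusted p = 0.0937; 0.00497 with the block, edgeR). Of the cyclins, Cdk1 and CDC25, 2 of 6 were called, and 4 with the block. Ccnb1 was at 170.3, 204, 88.4 and 237 CPM in URE LSKs and 318, 256, 220.3 and 360.3 CPM in URE GMPs, so that URE LSK replicate 4 lay above URE GMP replicate 3. Of the 5 genes of chromosome structure 0 were called with or without the block. Their median log2 fold change was 0.31, and Mki67 was at 0.31 ± 0.28 and Top2a at 0.33 ± 0.22. Without the block 1 of those 5 had an unadjusted p under 0.05, and the cytokinesis genes gave 1 call of 3, the spindle-associated genes 1 of 8, the kinetochore genes 2 of 5, the checkpoint genes 2 of 7, and the 6 kinesins and the 3 other mitotic kinases 0, with 3 and 1 at an unadjusted p under 0.05 by edgeR. With the block the calls were 2 of 3 for cytokinesis, 5 of 8 for the spindle-associated genes, 3 of 5 for the kinetochore, 4 of 7 for the checkpoint, 2 of 6 for the kinesins and 2 of 3 for the other mitotic kinases. Without URE LSK replicate 3 and without the block, the passenger complex had 0 calls of 3, with 2 at an unadjusted p under 0.05 by edgeR. The cyclins, Cdk1 and CDC25 then had 1 of 6, the checkpoint 1 of 7, the kinetochore 1 of 5, the spindle-associated genes 1 of 8 and cytokinesis 1 of 3, and the median of the chromosome structure genes was 0.25. With the block but without that library, the cyclins, Cdk1 and CDC25 had 3 of 6, the checkpoint 3 of 7 and the spindle-associated genes 4 of 8, and the other classes had the counts given with it.

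**Figure D3:**
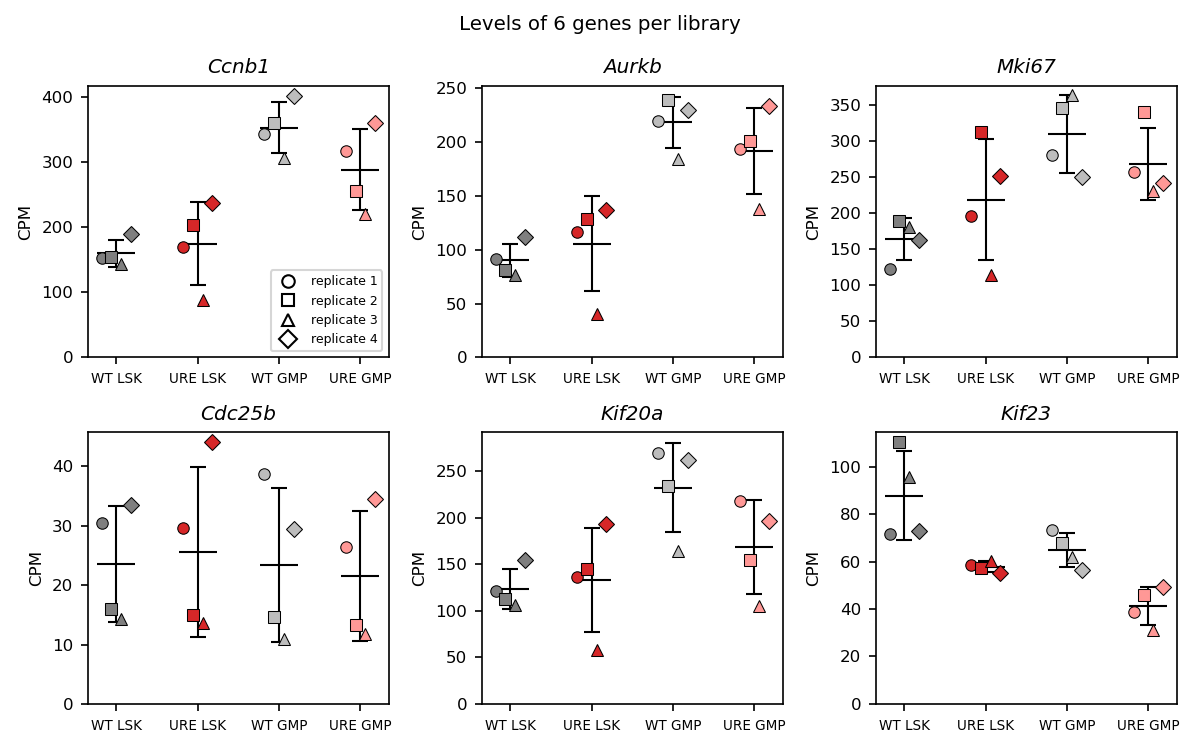
Levels (y axis, CPM) of 6 mitosis genes in the 16 libraries by group (x axis); marker shape gives the replicate number and horizontal lines and bars the group mean ± 1 SD (n = 4). Ccnb1 and Aurkb sit higher in GMPs, with URE LSK replicate 3 low at 88.4 and 40.7 CPM, and Kif23 sits lower in URE libraries of both populations.

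Loss of the PU.1 enhancer was compared within each population. In LSKs 0 of the 46 genes were called in either direction by edgeR, where 2.38% of the 15154 genes tested rose and 3.76% fell. The unadjusted p was under 0.05 for 1 gene, where it was for 2325 of the 15154 genes tested, and DESeq2 also called 0. The median log2 fold change was 0.06, against 0.00 over all genes tested, and the individual values ran from -0.64 for Kif23 to 0.49 for Ttk. The median rested on single libraries: without URE LSK replicate 3 it was 0.21, and leaving out 1 library at a time gave -0.06 to 0.21. Without URE LSK replicate 3, 5 of the 46 genes had an unadjusted p under 0.05 by edgeR, where 2718 of the 15490 genes tested had. Ttk measured 40.1, 39.0, 30.2 and 44.3 CPM in WT LSKs and 51.5, 61.1, 35.2 and 74.8 CPM in URE LSKs (adjusted p = 0.382), higher in URE in 4 of 4 same-numbered pairs with overlapping groups. Mki67 measured 196, 313, 115 and 251 CPM in URE LSKs, with replicate 3 below every WT library. Its log2 fold change was 0.37 ± 0.28 over all libraries. Without URE LSK replicate 3 and with the replicate block, Mki67 was higher in URE LSKs by 0.63 ± 0.11 (edgeR adjusted p = 0.0193), the 1 gene of the 46 called in that fit, where 3.74% of all genes were called higher.

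In GMPs 0 of the 46 genes were called by edgeR, where 4.67% of the 13829 genes tested rose and 3.63% fell. The unadjusted p was under 0.05 for 3 genes, where it was for 2808 of the 13829 genes tested. DESeq2 called 1, Kif23, lower, where it called 4.77% of all genes lower. The log2 fold change was negative for 40 of the 46 genes, where it was for 6855 of the 13829 genes tested. The median was -0.16 against 0.01 over all genes tested, and 13 genes were lower and 0 higher in URE in 4 of 4 same-numbered pairs. Counts by same-numbered pair are given throughout without a share over all genes, so they are not compared with other genes. The median was 0.00 with replicates 1 and 4 only and -0.29 with replicates 2 and 3 only. Groups were separate for 3 genes, each lower in URE (Kif23, Ckap2 and Aurka), where 7.67% of all genes tested were separate and lower and 7.27% separate and higher. An exact two-sided permutation test of 4 against 4 libraries cannot go below p = 0.0286. Aurka measured 119, 153, 122 and 133 CPM in WT GMPs and 102, 105, 79.1 and 112 CPM in URE GMPs (log2 fold change -0.38 ± 0.15, edgeR adjusted p = 0.192). Ckap2 measured 57.4, 60.0, 59.8 and 62.0 CPM in WT GMPs and 47.3, 35.6, 38.8 and 53.7 CPM in URE GMPs (-0.43 ± 0.18, adjusted p = 0.208). The median without URE GMP replicate 3 was -0.08.

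Marker genes of other cells moved between the genotypes as well. The summed level of 9 erythroid markers was 2245 to 2725 CPM in URE LSKs and 1183 to 1792 CPM in WT LSKs, with 1 marker averaging under 1 CPM in each group. Most of that sum was Car2, at a mean of 2334 and 1391 CPM, while the defining markers Klf1 (3.74 and 5.42 CPM), Gata1 (6.80 and 8.71 CPM) and Car1 (9.83 and 20.7 CPM) averaged lower in URE LSKs. The sum of 8 late neutrophil markers was 246 to 995 CPM in URE GMPs and 50.1 to 154 CPM in WT GMPs, with 2 and 1 markers under 1 CPM. Ngp averaged 207 and 27.5 CPM, S100a8 180.1 and 33.1 CPM and Camp 157 and 20.6 CPM in URE and WT GMPs, whereas Mmp8 averaged 0.828 and 6.91 CPM. The sum of 7 monocyte and dendritic markers was 60.4 to 241 CPM in URE GMPs and 619 to 1008 CPM in WT GMPs, with 1 and 0 markers under 1 CPM. Further marker sums had no overlap between genotypes in LSKs. Monocyte and dendritic markers summed to 49.8 to 112 CPM in URE and 198 to 385 CPM in WT, and late neutrophil markers to 182 to 365 CPM in URE and 35.5 to 179.9 CPM in WT. Mast cell and basophil markers were higher in URE LSKs (89.9 to 155.5 against 23.7 to 45.2 CPM, with 1 of 5 markers under 1 CPM in each group). That sum was mostly Cpa3, at a mean of 89.7 and 23.6 CPM. Mcpt8 (17.6 and 3.96 CPM) and Fcer1a (1.33 and 0.313 CPM) also averaged higher in URE. Prss34 (3.14 and 5.86 CPM) and Ms4a2 (0.268 and 1.81 CPM) averaged lower in URE. Of the lymphoid sums, B cell markers (25.7 to 36.5 against 58.25 to 86.2 CPM) and T cell markers (39.4 to 52.9 against 58.6 to 115.7 CPM) were lower in URE LSKs. The B cell sum was mostly Cd79b, at 29.9 and 66.7 CPM, with 5 and 3 of 6 markers under 1 CPM, and the T cell sum mostly Lck, at 44.98 and 80.5 CPM, with 5 and 4 of 6 under 1 CPM. In GMPs the B cell sum was 10.9 to 25.7 CPM in URE and 63.2 to 86.7 CPM in WT. It was mostly Cd79b as well (14.96 and 75.3 CPM), with 4 of 6 markers under 1 CPM in both groups and Vpreb1 at 2.67 and 1.34 CPM. The part of these differences in the mitosis values was not tested.

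**Figure D4:**
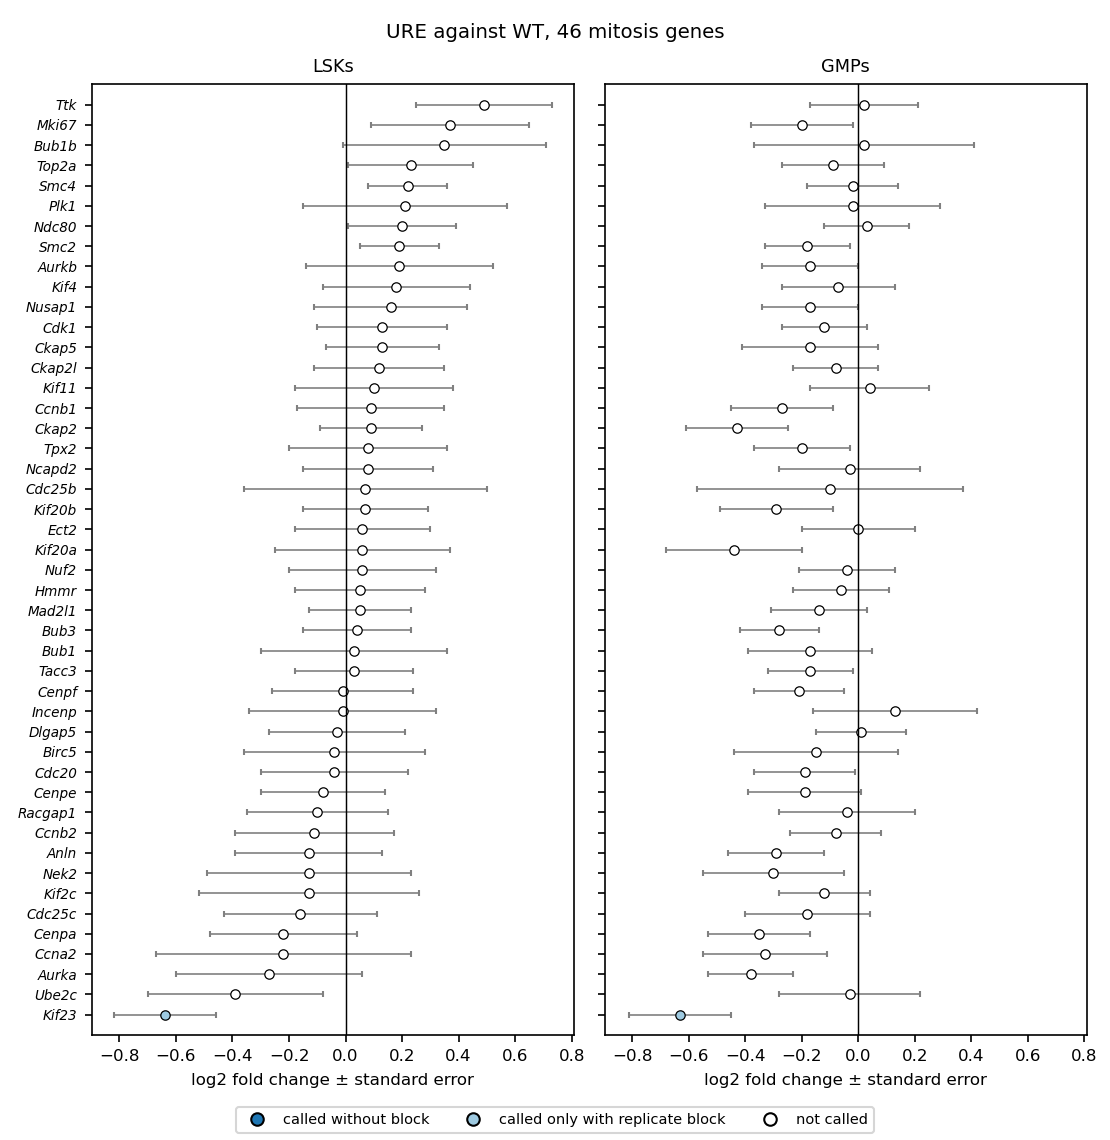
URE against WT for the 46 mitosis genes (y axis, ordered by the LSK value) in LSKs (left) and GMPs (right): log2 fold change (x axis) with its standard error. Open points were not called; Kif23, at -0.64 and -0.63, is the 1 gene called with the replicate block in either panel.

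Kif23 was the lowest of the 46 genes in all 4 of these comparisons. It encodes the kinesin that forms the centralspindlin complex with Racgap1 and bundles microtubules at the midzone before cytokinesis (chr9:61915905-61946774, minus strand, GRCm38; no exon shared with another gene). It measured 71.6, 110.5, 95.8 and 73.0 CPM in WT LSKs and 58.7, 57.4, 60.3 and 55.0 CPM in URE LSKs. In GMPs it measured 73.4, 67.8, 62.0 and 56.4 CPM in WT and 38.7, 45.97, 31.4 and 49.2 CPM in URE. Every URE library was below every WT library of the same population. In LSKs Kif23 was the 1 gene of the 46 whose groups were separate, where 6.91% of all genes were separate and lower and 5.67% separate and higher in URE. The log2 fold change in URE was -0.64 ± 0.18 in LSKs (edgeR adjusted p = 0.0837) and -0.63 ± 0.18 in GMPs (adjusted p = 0.0694), short of the threshold in both. With the replicate block the adjusted p was 0.0323 and 0.0363, and Kif23 was the 1 gene of the 46 called lower in each population, where the block called 5.62% of all genes lower in LSKs and 6.82% in GMPs. In LSKs the block without replicate 3 of URE gave -0.59 ± 0.16 and an adjusted p of 0.072. From LSK to GMP, Kif23 was at -0.44 ± 0.18 in WT and -0.48 ± 0.18 in URE (adjusted p = 0.0888), where its partner Racgap1 was at 0.58 ± 0.21 and 0.59 ± 0.28. The LSK to GMP values share their libraries with the genotype values.

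Whether the LSK to GMP difference depends on genotype was tested with an interaction term over all 16 libraries. By edgeR 0 of the 46 genes passed an adjusted p of 0.05 in either direction, where 0.866% of the 15935 genes tested were higher and 0.351% lower. The unadjusted p was under 0.05 for 2 genes, where it was for 1853 of the 15935 genes tested, and DESeq2 called 0. The interaction was negative for 41 of 46 genes, meaning a smaller increase in URE, where it was for 7930 of the 15935 genes tested. Its median over the 46 was -0.20, against 0.00 over all genes tested. That median ran from -0.39 without URE LSK replicate 3 to -0.10 without URE LSK replicate 4. Without URE LSK replicate 3, 0 were called by edgeR and 9 of the 46 had an unadjusted p under 0.05, where 2029 of 16296 genes tested had. The smaller number of calls in URE than in WT was therefore not shown to be a difference between genotypes. With the replicate block 0 passed, where 3.97% of all genes were higher and 2.6% lower, and with the block and without URE LSK replicate 3 there were 6, each negative, where 4.15% of all genes were called lower. These 6 were Mki67 (-0.80 ± 0.19, adjusted p = 0.0178), Ckap2 (-0.62 ± 0.16, adjusted p = 0.0251), Aurkb (-0.57 ± 0.14, adjusted p = 0.0258), Ccnb1 (-0.53 ± 0.14, adjusted p = 0.0353), Kif20a (-0.65 ± 0.18, adjusted p = 0.0432) and Nusap1 (-0.56 ± 0.16, adjusted p = 0.045).

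Within groups the mitosis genes varied together from library to library. Their deviations from group means correlated between same-numbered libraries of the groups compared at 0.44 to 0.91. This variation was therefore partly shared across groups by replicate number, which the values below do not take into account. After each group's mean was removed from the log2 CPM values, 1 principal component held 61.4% of the variance of the 46 genes over the 16 libraries and the next held 26.8%. Pearson's r of a gene with the mean of the other 45 had a median of 0.78, and 37 genes had r above 0.5. It was highest for Tpx2 (0.97) and for Aurkb, Bub1 and Nusap1 (0.96 each). It was lowest for Kif23 (0.07), Kif20b (0.09) and Smc2 (0.25). These values describe 16 libraries, in each of which all genes share 1 preparation and depth. URE LSK replicate 3, at a mean deviation of -0.70 on the log2 scale, is 1 of them. That library held 50.4% of the summed squared scores on the first component. Without it, over 15 libraries, the components held 53.3% and 29.2%, the median r was 0.60 and 26 genes had r above 0.5, with Tpx2 at 0.89, Kif23 at 0.28, Kif20b at -0.10 and Smc2 at 0.04.

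Some of the genes also varied with the replicate number. Plk1, Nek2, Incenp, Bub1b, Cdc25b, Ncapd2 and Ckap5 were each higher in replicates 1 and 4 than in replicates 2 and 3 in all 4 groups, and 0 genes were lower in this way. The difference was largest for Cdc25b, at 1.27 on the log2 scale, and Bub1b, at 1.02. The share of all genes that separated by replicate in this way was not computed. These counts are therefore not compared with other genes. Cdc25b measured 30.4, 16.1, 14.3 and 33.5 CPM in WT LSKs and 29.6, 15.0, 13.7 and 44.0 CPM in URE LSKs. In GMPs it measured 38.7, 14.7, 10.9 and 29.4 CPM in WT and 26.4, 13.3, 11.9 and 34.6 CPM in URE. Cdc25b was called in 0 of the genotype and population comparisons, with or without the block. Within replicates 1 and 4 alone, 22 genes rose from LSK to GMP in WT, where 8.23% of all genes tested rose, and 22 in URE, where 13.8% rose. Within replicates 2 and 3 alone 29 rose in WT, against 8.35% of all genes, and by edgeR 0 in URE, against 2.47% of all genes and with 6 of the 46 at an unadjusted p under 0.05. The labels do not say what a replicate number stands for.

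**Figure D5:**
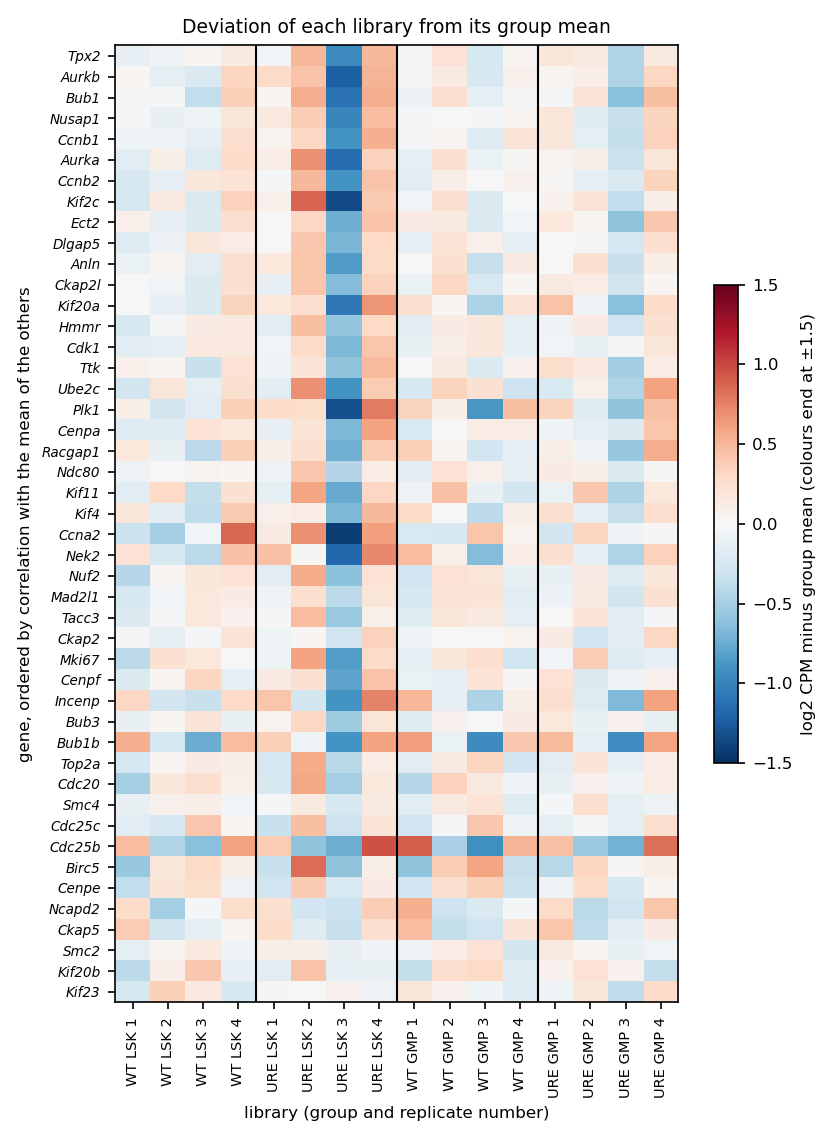
Deviation of each mitosis gene from its group mean (colour, log2 CPM) in the 16 libraries (columns, by group and replicate), with genes in rows. URE LSK replicate 3 is below its group mean for 45 of the 46 genes and URE GMP replicate 3 for 43.

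Other genes of the cell cycle were read beside them. Of 60 further mitosis genes, 33 rose and 1 fell from LSK to GMP in WT, and 11 rose and 1 fell in URE, with medians of 0.73 and 0.46, where 11.5% and 9.2% of all genes tested rose. With the block 42 rose in WT and 20 in URE, against 15.8% and 13.3% of all genes. The kinetochore gene Cenpw rose by 1.40 ± 0.34 in WT and 1.30 ± 0.25 in URE, and Cks2, a Cdk-binding subunit, rose by 1.80 ± 0.32 in URE. The URE counts without URE LSK replicate 3 were 11 and 1 without the block and 18 and 1 with it, with a median of 0.33 without the block. In URE against WT GMPs 1 of the 60 was called, below the 3.63% of all genes called lower, and with the block 1 was higher and 2 lower, against 9.52% and 6.82% of all genes. The gene called without the block was the spindle protein gene Psrc1, which fell by 1.40 on the log2 scale (SE 0.23, edgeR adjusted p = 0.00621). Of 38 DNA replication genes, 22 rose in WT and 4 rose and 1 fell in URE, with medians of 0.76 and 0.30, beside the same shares of all genes. The 4 of 38 in URE is near the background. With the block 24 rose in WT, and 8 rose and 1 fell in URE. When URE LSK replicate 3 was left out, 2 rose and 1 fell in URE without the block (median 0.21), and 7 rose and 1 fell with it. Rrm2, a subunit of ribonucleotide reductase, rose by 1.84 ± 0.15 in WT and 1.36 ± 0.35 in URE. The interaction was negative for 37 of the 38, where it was for 7930 of the 15935 genes tested, with a median of -0.44. By edgeR 0 passed without the block, with 8 at an unadjusted p under 0.05. With the block 4 passed, each negative, where 2.6% of all genes were lower. The median without URE LSK replicate 3 was -0.57, 1 passed without the block and 13 with it, where 4.15% of all genes were lower with the block.

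Transcription regulators of the cell cycle were read in the same way. Of 20 regulators, 2 rose from LSK to GMP in WT, and 1 rose and 1 fell in URE, shares near or below those of all genes tested (11.5% higher in WT, 9.2% higher and 12.6% lower in URE). Mybl2, the B-Myb that joins MuvB to activate late cell cycle genes, rose by 1.32 ± 0.41 (edgeR adjusted p = 0.0394), and Tfdp1, the dimer partner of E2F factors, rose by 0.88 ± 0.20 (adjusted p = 0.00943). In URE the repressor E2f8 rose by 1.53 ± 0.47 (adjusted p = 0.044), beside 1.28 ± 0.46 in WT (adjusted p = 0.0665, 0.000266 with the block), and E2f5 fell by 1.62 (SE 0.45, adjusted p = 0.0306), while Mybl2 was at 0.83 ± 0.32 (adjusted p = 0.0939, 0.0166 with the block). With the block 3 rose and 1 fell in each genotype, where 15.8% of all genes rose and 25.1% fell in WT and 13.3% rose and 18.6% fell in URE. Without URE LSK replicate 3 and without the block 0 were called in URE by edgeR, with 4 at an unadjusted p under 0.05, and with the block 3 rose and 1 fell. E2f8 shares 610 exonic bases with Gm2788, and Rbl2 693 with Aktip, on the other strand. Among those called in WT with the block was Rbl2, at a log2 fold change of -0.73 ± 0.27 (adjusted p = 0.0749, 0.000139 with the block). Foxm1, which activates Ccnb1 and Plk1 among others, was at 0.23 ± 0.28 in WT and 0.19 ± 0.51 in URE and was not called. In the genotype comparisons 0 of the 20 were called by edgeR without the block in LSKs or GMPs, with 1 at an unadjusted p under 0.05 in each. In LSKs, with the block and without URE LSK replicate 3, 1 of the 20 was called higher, where 3.74% of all genes were. With the block 1 of the 20 was called in GMPs, below the 9.52% of all genes called higher there. It was Rbl2, a pocket protein of the repressor complex of quiescent cells, with a log2 fold change of 0.59 ± 0.23 in GMPs (adjusted p = 0.182, 0.012 with the block).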

How the data were processed

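RNA was sequenced from sorted LSKs and GMPs of WT and URE mice, 4 per group, from at most 10 ng of RNA with unstranded paired-end libraries without molecular identifiers. The authors deposited estimated counts per gene, made with Salmon (version not given in the sources used here) on GRCm38, summed to genes and rounded to whole numbers; no annotation release is given in the sources used here. Reads shared with pseudogenes are divided by estimation. Of the table's per-sample columns, 0 were unused. Samples were grouped by their titles.

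Tests used edgeR 4.0.16 (TMM, filterByExpr, quasi-likelihood) in R 4.3.3, with Benjamini-Hochberg adjustment over all genes tested and a fold threshold of 1.5, or no fold threshold for the interaction. DESeq2, which the study used, was run here in version 1.42.0 as an alternative, with other scaling, filters, a replicate block, a joint fit and leaving out each library. CPM values and log2 values for the variation used TMM factors, with a prior count of 2 on the log scale. Scripts were tested on simulated data. Deviations from group means over 15935 genes correlated between same-numbered samples at 0.28 to 0.58 in LSKs and 0.24 to 0.55 in GMPs. Between populations the range was 0.42 to 0.71 in WT and 0.38 to 0.53 in URE. Differently numbered samples averaged -0.14, -0.13, -0.19 and -0.14 in the same order. The same number correlated best for 4 of 4 GMP libraries between populations, and for 3 of 4 URE libraries between genotypes in each population. URE LSK replicate 4 correlated at 0.4 with WT LSK replicate 1 and 0.28 with WT LSK replicate 4. For URE GMP replicate 4 the values were 0.39 and 0.24. Pairing by number was therefore partial between genotypes. The labels do not say whether 1 mouse gave both populations. No 2 libraries of a group were alike within sampling noise (smallest chi-square per degree of freedom 29.6). Gene positions and exonic overlaps came from GENCODE, promoters from RefSeq.

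The list of members, the other lists and the rule for named genes were drawn up with earlier results of these data known. The rule named all members, the regulators, sort markers, Spi1 and, per comparison, the most changed called genes of the other lists (4 mitosis, 2 replication). The text gives every member and, for length, some of the others. Without molecular identifiers, read counts do not give the number of RNA molecules, so counting error was not measured. Precision is also limited by 4 mice per group.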

Additional observations from a re-analysis of the deposited data

Results flagged for a closer look

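In 192 sets of 4 libraries, each 1 gene or summed level in 1 group, 2 had 1 library far from the other 3 by Dixon's criterion; chance alone gives about 1 in 20, which is about 10. Kif20b was at 123.8 CPM in URE LSK replicate 2, where the other URE LSK libraries lay between 82.4 and 85.4 CPM. Tpx2 was at 155.1 CPM in URE GMP replicate 3, where the other URE GMP libraries lay between 232 and 238 CPM.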

How the results depend on the processing

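The alternatives run were other scaling, filters, DESeq2, the replicate block, a joint fit, no minimum fold, pairs of replicates and each library left out. Under these the number of genes that rose from LSK to GMP in WT stayed within 1.5 times of 33. It ran from 22 with replicates 1 and 4 only (8.23% of all genes) to 36 with the block (15.8%). Leaving out 1 library gave 28 to 35, where 8.7% to 13.2% of all genes rose. In URE the main count of 9 depended on the setting. It was 4 with no filter on low counts, where 4.28% of all genes tested rose, 18 in the joint fit of 16 libraries (10.6% of all genes), 25 with the replicate block (13.3%), 22 with the block and without URE LSK replicate 3 (15.5%), 22 with replicates 1 and 4 only (13.8%) and 0 with replicates 2 and 3 only (2.47%). Leaving out 1 library at a time gave 2 to 16, where 6.22% to 10.9% of all genes rose. For URE against WT in LSKs the count lower was 1 with the block, and the count higher was 1 with the block and without URE LSK replicate 3. In GMPs the count lower was 1 with DESeq2, with the block and in the joint fit, where 4.77%, 6.82% and 4.25% of all genes were lower. The interaction had 6 lower with the block and without URE LSK replicate 3. The blocked fits, counts by class and list, levels and within-group variation without URE LSK replicate 3 were chosen after seeing the data. The block pairs same-numbered samples and changed no other count of calls over all 46 genes by over 1.5 times. Counts at an unadjusted p under 0.05 by edgeR did change by more with the block. They went from 1 to 4 for URE against WT in LSKs, from 3 to 6 in GMPs and from 2 to 5 for the interaction. From LSK to GMP in URE the count went from 23 to 35. The interaction of Kif23, -0.01 in the main setting, changed sign with replicates 2 and 3 only (0.12), with the block and without URE LSK replicate 3 (0.03), and in 6 of 16 settings that leave out 1 library, where it ran from -0.14 to 0.10. The cause of these changes was not tested. Between TMM scaling and RLE size factors, the other scaling run, the median of all genes shifted by at most 0.07 on the log2 scale. Unscaled shares of counts differed less between populations than CPM did. The shares averaged 0.586% and 0.792% in WT LSKs and GMPs, beside 5148 and 8755 CPM. The summed GMP and neutrophil progenitor markers averaged 1321 and 61160 CPM in WT LSKs and GMPs, and 1092 and 109100 CPM in URE. Their part in the scaling was not tested.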
